A study of Mus musculus with 5 samples.

Results

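The 8 genes known from microglia and macrophages that are described here were followed across MGE tissue and MGE cultures of WT and Dlx1/2 mutant mouse embryos: C1qa, C1qb, C1qc, Csf1r, Cx3cr1, Aif1, Tyrobp and Lgals3. They were taken as every probe set whose single gene symbol in the platform annotation is one of these names, which gave 13 probe sets for 8 of the 18193 genes named on the array. The study measured RNA on 5 Affymetrix mouse arrays from the rostral medial ganglionic eminence (MGE), the ventral forebrain germinal region in which many cortical interneurons are born. The arrays form 4 groups, all from E15.5 embryos: WT tissue of the ventricular and subventricular zones (1 array), the same tissue from Dlx1/2 mutant embryos (2 arrays), primary neuronal cultures made from these zones of WT embryos (1 array), and such cultures from Dlx1/2 mutant embryos (1 array). The mutants lack function of the linked homeodomain transcription factor genes Dlx1 and Dlx2. The labels give neither the allele, nor the number of embryos pooled, nor the time in culture, and no label says whether the 2 arrays of mutant tissue hold different embryos. The p-values therefore rest on how far such arrays lie apart, and part of that distance can be technical. In the additive model over both preparations they also rest on how far the genotype difference disagrees between tissue and culture. The title of the WT tissue sample writes its genotype as "+/_", while its description says WT.

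Microglia are the resident macrophages of the brain; they descend from yolk sac progenitors that enter the forming nervous system, and they are not made by the MGE itself. Csf1r, a receptor tyrosine kinase on their surface, keeps them alive through its ligands Csf1 and Il34. Cx3cr1 receives the neuronal chemokine Cx3cl1, and Tyrobp is a signalling adaptor for receptors such as Trem2. C1qa, C1qb and C1qc encode the 3 chains of C1q, the recognition molecule of the classical complement pathway. Aif1, also called Iba1, is an actin-binding protein used to stain microglia. Lgals3 encodes galectin-3, a sugar-binding protein of macrophages and of phagocytic microglia that many other cell types also make.

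The labels were followed by the targeted genes: Dlx1 had a signal of 3278 in WT tissue and 603 in WT culture, and between 0.921 and 2.80 in the 3 mutant arrays. Signals are the deposited linear intensities. Array medians lay between 26.2 and 29.8. Differences are on the log2 scale after quantile normalization, with values under a floor (a signal of 5.15) set to it. A gene, represented by its brightest probe set, was tested where its mean exceeded the median over all probe sets and arrays (a signal of 27.8). In all 11063 genes were tested with limma, and an adjusted p below 0.05 counted as past the threshold. Of the 8 members 7 were tested, and 11 of the 13 probe sets lay above this limit. Aif1 and the dimmest probe set of Csf1r lay below it. The tissue mean of Lgals3 (3.64 log2) lay under the limit (4.80), so this gene was tested only because it was bright in culture. The same holds for Csf1, Cebpb, Cd68 and Tagln among the genes named below. P2ry12, Entpd1, Cd93, Cldn5, Esam, Alas2, Kcnj8, Abcc9 and Spi1 were tested only through tissue, their culture means lying under the limit. For such genes the direction between culture and tissue was set by that selection, and their differences are a description.

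Members differed in opposite directions between culture and tissue. Csf1r was 3.46-fold lower in culture by its brightest probe set, while culture and tissue overlapped on its second. Lgals3, near the floor in tissue, was at least 40.2-fold brighter in the dimmer culture array than in any tissue array. C1qa, C1qc and Tyrobp differed by −0.14 to 0.24 on the log2 scale and did not pass the test. C1qb was 1.72-fold lower by its brightest probe set, and Cx3cr1 was lower without passing the test. No member passed the test for a difference between mutant and WT embryos.

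**Figure D1:**
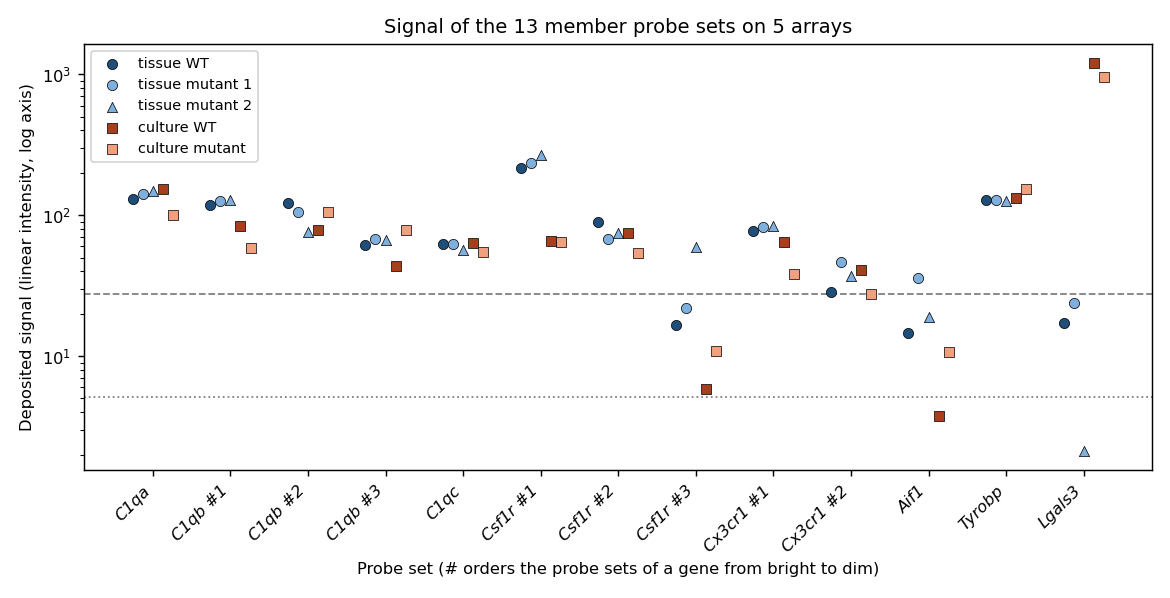
Deposited signal (log axis) of the 13 member probe sets, with 1 point for each of the 5 arrays; the dashed line is the signal of 27.8 above which a mean was tested, and the dotted line the floor of 5.15. The brightest Csf1r probe set falls from at least 217 in tissue to about 65 in culture, Lgals3 rises from below 24 to above 960, and the probe sets of C1qa, C1qc and Tyrobp stay between 55.2 and 154 on every array.

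The upstream sequences of C1qb, C1qc and Lgals3 are shown. No C1q chain passed the test upwards in culture, and Lgals3 was far brighter there. Csf1r, the tested member that fell most, had no promoter to read, and neither had C1qa and Tyrobp. In the RefSeq promoter table (GRCm38.p6), 5 of the 8 members were matched by symbol, and the 250 bases before the annotated start were read. C1qb, C1qc and C1qa follow each other directly on chromosome 4. Capitals in the C1q sequences mark the core of the PU box, the site of the myeloid factor PU.1 (GAGGAA, or TTCCTC where it lies on the other strand), and capitals in the Lgals3 sequence mark a GC box (GGGCGG, or CCGCCC on the other strand).
C1qb, chr4:136886201-136886450, minus strand: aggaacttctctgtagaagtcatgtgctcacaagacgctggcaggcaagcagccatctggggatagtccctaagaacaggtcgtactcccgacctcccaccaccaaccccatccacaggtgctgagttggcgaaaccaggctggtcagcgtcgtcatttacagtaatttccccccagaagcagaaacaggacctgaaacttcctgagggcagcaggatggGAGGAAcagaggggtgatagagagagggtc
C1qc, chr4:136892915-136893164, minus strand: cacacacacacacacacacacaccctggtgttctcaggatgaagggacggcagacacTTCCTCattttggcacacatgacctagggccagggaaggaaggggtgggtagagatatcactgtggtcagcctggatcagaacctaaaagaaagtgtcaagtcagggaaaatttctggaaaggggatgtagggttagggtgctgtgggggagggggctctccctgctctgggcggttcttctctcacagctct
Lgals3, chr14:47373610-47373859, plus strand: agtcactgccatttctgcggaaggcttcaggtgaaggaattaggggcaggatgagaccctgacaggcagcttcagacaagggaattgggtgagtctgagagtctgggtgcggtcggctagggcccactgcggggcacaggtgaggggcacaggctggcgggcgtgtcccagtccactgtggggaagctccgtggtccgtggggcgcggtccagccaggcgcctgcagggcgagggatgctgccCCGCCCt
Searched on both strands, GAGGAA was found once in C1qb (30 to 25 bases before the start), once in C1qc (193 to 188 bases) and once in Aif1 (7 to 2 bases), and not in the windows of Cx3cr1 and Lgals3. Of all 32851 promoter windows of this length, 23.3% held it. GGGCGG was found once in Lgals3 (7 to 2 bases) and once in C1qc (24 to 19 bases, lower case above), and 32.7% of all windows held it. The AP-1 site TGANTCA was in none of the 5 windows and in 6.75% of all. The 2 motifs do not overlap in C1qc. A match describes letters and not a bound site.

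The receptor Csf1r has 3 probe sets. The brightest read 217 in tissue of WT embryos and 237 and 269 in that of mutants, against 65.6 (WT) and 64.5 (mutant) in culture. The 3 tissue arrays were all high, both culture arrays were low and almost equal, and the groups did not overlap. In culture Csf1r fell by 1.79 ± 0.17 (SE, limma, adjusted p = 0.000171), with −1.66 within WT and −1.89 within mutants. The next probe set read 89.7 in tissue of WT embryos and 68.0 and 74.2 in that of mutants, against 74.8 (WT) and 53.7 (mutant) in culture, so culture and tissue overlapped (−0.27 ± 0.22, adjusted p = 0.38 among all probe sets tested, of which 34.9% passed). The dimmest read 16.5 in tissue of WT embryos and 22.01 and 59.8 in that of mutants, against 5.81 (WT) and 10.8 (mutant) in culture. It lay lower in culture, without overlap and without a test. The size of the fall in Csf1r therefore differed between its probe sets, while the mean over all 3 still passed (−1.21 ± 0.25, adjusted p = 0.013).

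Cx3cr1, the fractalkine receptor, has 2 probe sets. The brighter read 76.7 in tissue of WT embryos and 82.5 and 84.3 in that of mutants, against 64.9 (WT) and 38.5 (mutant) in culture. Both culture arrays lay below all tissue arrays, mutant culture being lowest, but the difference missed the threshold (−0.65 ± 0.27, adjusted p = 0.093). Only in a model with a separate mean for each of the 4 groups did it pass (−0.58 ± 0.21, adjusted p = 0.041). The dimmer probe set read 28.5 in tissue of WT embryos and 46.6 and 37.0 in that of mutants, against 40.7 (WT) and 27.6 (mutant) in culture, and here tissue and culture overlapped.

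Tyrobp, the adaptor, read 128 in tissue of WT embryos and 128 and 126 in that of mutants, against 132 (WT) and 152 (mutant) in culture. Both culture arrays lay above the tissue arrays by a small margin, and the difference did not pass (0.24 ± 0.17, 95% interval −0.15 to 0.64, adjusted p = 0.30). The spread over the 3 tissue arrays was 1.07-fold, among the narrowest of the members.

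C1qa and C1qc varied little between the tissue arrays, by 1.08-fold and 1.12-fold. C1qa read 130 in tissue of WT embryos and 142 and 148 in that of mutants, against 154 (WT) and 100.03 (mutant) in culture. C1qc read 62.3 in tissue of WT embryos and 62.8 and 57.0 in that of mutants, against 63.9 (WT) and 55.2 (mutant) in culture. For both genes culture and tissue overlapped, with WT culture the highest array and mutant culture the lowest. Neither passed between culture and tissue: C1qa differed by −0.14 (95% interval −0.62 to 0.34, limma adjusted p = 0.63) and C1qc by 0.040 (−0.52 to 0.60, adjusted p = 0.91). These intervals leave room for changes of up to about 0.6 in either direction.

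C1qb was the chain that passed, and its 3 probe sets disagreed. The brightest read 119 in tissue of WT embryos and 126 and 127 in that of mutants, against 83.5 (WT) and 58.5 (mutant) in culture. It was lower in both culture arrays without overlap (−0.78 ± 0.21, adjusted p = 0.021). The second read 122 in tissue of WT embryos and 106 and 76.3 in that of mutants, against 78.9 (WT) and 106 (mutant) in culture. The last of the 3 read 61.0 in tissue of WT embryos and 67.2 and 66.5 in that of mutants, against 43.6 (WT) and 78.9 (mutant) in culture. On these 2 probe sets mutant culture was above WT culture, tissue and culture overlapped, and the differences between culture and tissue were −0.068 and 0.023. With no filter the first probe set kept its difference, but the call of C1qb was lost (limma adjusted p = 0.11). It was also lost in fits that omitted 1 of the mutant tissue arrays. The second probe set was then the brightest, and with the first one kept in place the difference was −0.73 (adjusted p = 0.079) without replicate 1 and −0.74 (0.074) without replicate 2. The mean of the 3 probe sets did not pass either (−0.28, adjusted p = 0.30).

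Aif1, the cytoskeletal marker, was dim: 14.7 in tissue of WT embryos and 35.7 and 19.1 in that of mutants, against 3.74 (WT) and 10.7 (mutant) in culture. Both culture arrays lay below all tissue arrays, with WT culture under the floor. It was not tested, and the mutant tissue arrays alone were 1.80-fold apart.

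Lgals3 behaved unlike the other members. It read 17.1 in tissue of WT embryos and 23.9 and 2.12 in that of mutants, against 1196 (WT) and 963 (mutant) in culture. All tissue arrays were dim, with mutant replicate 2 under the floor, and both culture arrays were bright. The fitted difference was 6.33 ± 0.55, with 6.20 within WT and 6.43 within mutants. It passed also where all genes were tested with no filter (limma adjusted p = 0.048). The tissue values are near the floor, so its size is uncertain: the lower culture array was 40.2-fold above the highest tissue array.

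**Figure D2:**
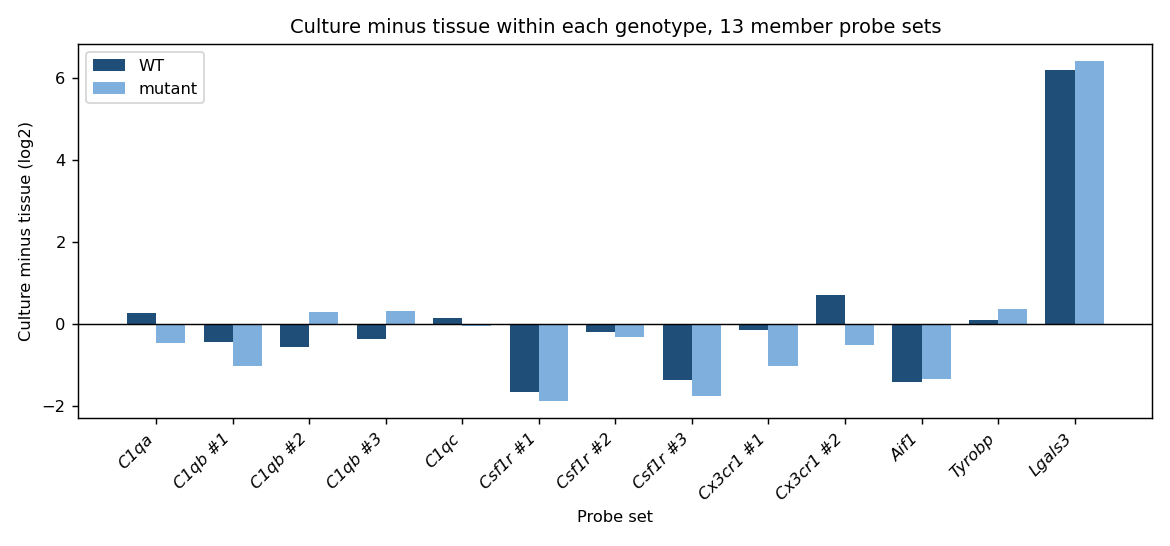
Culture minus tissue (log2, bars from 0) for the 13 member probe sets, within WT (1 array against 1) and within mutants (1 array against the mean of 2), with no error bars because 3 of the 4 groups hold 1 array. Lgals3 rises by over 6 in both genotypes, the brightest Csf1r probe set falls by 1.66 and 1.89, and the other C1qb probe sets differ in sign between genotypes.

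Between culture and tissue 3 of the 7 tested members passed, 2 lower and 1 higher. Over all genes tested 38.8% passed, 19.2% lower and 19.6% higher, so the share of members past the threshold is close to the background. Lgals3, the higher 1, was tested only through culture, and without it 2 of 6 passed. Culture and tissue did not overlap for 5 of the 7, 3 lower and 2 higher, against 58.8% of all genes tested (29.2% lower, 29.6% higher). The members' median was −0.14, beside 0.0016 over all genes tested. In bulk RNA, fewer cells of a type and less RNA per cell cannot be told apart.

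Of the ligands of both receptors, Csf1 and Cx3cl1 were brighter in culture, and Il34, too dim to test, was dimmer there. Csf1, which sustains macrophages through Csf1r, read 7.95 in tissue of WT embryos and 42.5 and 39.9 in that of mutants, against 535 (WT) and 610 (mutant) in culture. Csf1 was tested only through culture, so the rise of its brightest probe set (4.88 ± 0.44) is a description. This probe set passed with no filter too (limma adjusted p = 0.048). The other 2 above the limit differed by 2.11 and 1.38. Cx3cl1, the ligand of Cx3cr1, read 41.3 in tissue of WT embryos and 50.7 and 73.0 in that of mutants, against 180 (WT) and 188 (mutant) in culture, a rise of 1.94 ± 0.24 (adjusted p = 0.000687). Il34, the other Csf1r ligand, was too dim to test: 40.1 in tissue of WT embryos and 27.6 and 26.8 in that of mutants, against 4.88 (WT) and 23.2 (mutant) in culture.

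Of the 6 Csf1r-axis and myeloid factor genes tested, out of 13 listed, 2 were past the threshold upwards in culture, both tested only through culture, and 1 fell, Csf1r itself. Besides Csf1 the higher gene was Cebpb, a bZIP factor of myeloid and other cells (1.72 ± 0.36, adjusted p = 0.0073, lost with no filter at 0.098). Spi1, the gene of PU.1, read 37.7 in tissue of WT embryos and 49.0 and 20.98 in that of mutants, against 17.04 (WT) and 34.7 (mutant) in culture. Its mutant tissue arrays were far apart, the groups overlapped, and it did not pass (−0.34 ± 0.49, adjusted p = 0.63). Irf8, a factor microglia require, was too dim to test. Its brighter probe set lay between 17.8 and 27.96 on all arrays, and the dimmer read 17.6, 28.01 and 22.4 in tissue against 5.73 and 3.38 in culture, so they disagreed.

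Among the partners of Tyrobp and of the related adaptor Fcer1g, 0 of 6 tested genes passed between culture and tissue, with a median of 0.26. Fcer1g read 53.7 in tissue of WT embryos and 61.6 and 55.4 in that of mutants, against 71.3 (WT) and 45.6 (mutant) in culture (0.070 ± 0.29, adjusted p = 0.87). Trem2, the lipid receptor that signals through Tyrobp, was too dim to test: its brighter probe set lay between 3.78 and 27.6, and the other between 5.64 and 9.32 on all arrays but WT culture, where it read 32.3.

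Genes typical of resting microglia split. Of 17 tested in this list of 26, 5 rose and 6 fell in culture, with a median of 0.073. Of the 6, P2ry12 and Entpd1 were tested only through tissue. P2ry12, the purinergic receptor that marks microglia in the healthy brain, read 128 in tissue of WT embryos and 139 and 134 in that of mutants, against 12.3 (WT) and 9.84 (mutant) in culture. P2ry12 was lower by 3.60 ± 0.28, a description, because it was tested only through tissue. Ctss, a lysosomal protease of microglia, fell by 0.94 ± 0.14 (adjusted p = 0.0013). Entpd1, the ectonucleotidase CD39, which endothelium also makes, fell by 2.17 ± 0.27. Its call was lost without either mutant tissue array, when another probe set was brightest (−0.66 and −0.60). The risers Ctsl (1.77) and Cst3 (1.65), a protease and a protease inhibitor, are made by many cell types; with the mean of its probe sets Ctsl differed by 0.41 and did not pass.

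The pan-macrophage and leukocyte list gave 2 higher and 2 lower of 16 tested, out of 29 listed. Of the 2 higher, Cd68 was tested only through culture. Ly86, a partner of a Toll-like receptor relative, fell by 1.41 ± 0.25 (adjusted p = 0.0035, lost with no filter at 0.078), and the leukocyte actin bundler Lcp1 by 1.06 ± 0.30 (adjusted p = 0.024, lost without either mutant tissue array). Cd68, a lysosomal protein of macrophages, was higher by 1.62 ± 0.41 (adjusted p = 0.017, lost with no filter at 0.15), from 15.1, 31.8 and 31.3 in tissue to 74.5 and 60.01 in culture. Cyba, an NADPH oxidase subunit, rose by 1.49 ± 0.17. Laptm5, a lysosomal protein of blood cells, differed by −0.40 (adjusted p = 0.24). Several defining leukocyte genes were too dim to test on these arrays: Ptprc (CD45) lay between 2.80 and 15.9 by its brighter probe set, the integrin chain Itgam between 0.488 and 9.13, and its partner Itgb2 between 8.86 and 27.5.

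Of 4 tested genes of border and perivascular macrophages, out of 15 listed, 1 rose and 1 fell in culture. Pf4, a chemokine of these macrophages and of platelets, read 93.9 in tissue of WT embryos and 66.7 and 77.3 in that of mutants, against 28.7 (WT) and 44.7 (mutant) in culture. It fell by 1.03 ± 0.30 (limma adjusted p = 0.029). This call was lost without mutant tissue replicate 2, and also under another alternative way of processing. The riser was Maf (1.65), which MGE interneurons express too. Mrc1, the mannose receptor, lay between 9.20 and 23.1 and was not tested.

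In the complement list 1 gene rose and 2 fell of 10 tested, out of 24. Besides C1qb, the lower gene was Cd93, a C-type lectin receptor of endothelium and myeloid cells. It read 174 in tissue of WT embryos and 194 and 190 in that of mutants, against 13.6 (WT) and 15.01 (mutant) in culture. Cd93 was lower by 3.63 ± 0.22, a description, because it was tested only through tissue. Megf10, an astrocytic engulfment receptor, rose by 1.16 ± 0.15 (adjusted p = 0.000807).

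Against 19.6% higher and 19.2% lower over all genes tested, galectins and their ligands gave 4 higher and 0 lower of 6 tested. The list holds 11 genes, and the median of those tested was 0.73. Of the 4, Lgals3 was tested only through culture. Beside Lgals3, the related Lgals1 rose most. It read 1212 in tissue of WT embryos and 597 and 581 in that of mutants, against 10224 (WT) and 8303 (mutant) in culture (3.49 ± 0.15, adjusted p = 4.74e-06). Lgals8 rose by 0.86 ± 0.24 (limma adjusted p = 0.026, lost without either mutant tissue array). The galectin-related gene Lgalsl rose by 0.60 ± 0.12 (adjusted p = 0.0060), and its call was lost under an alternative way of processing.

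**Figure D3:**
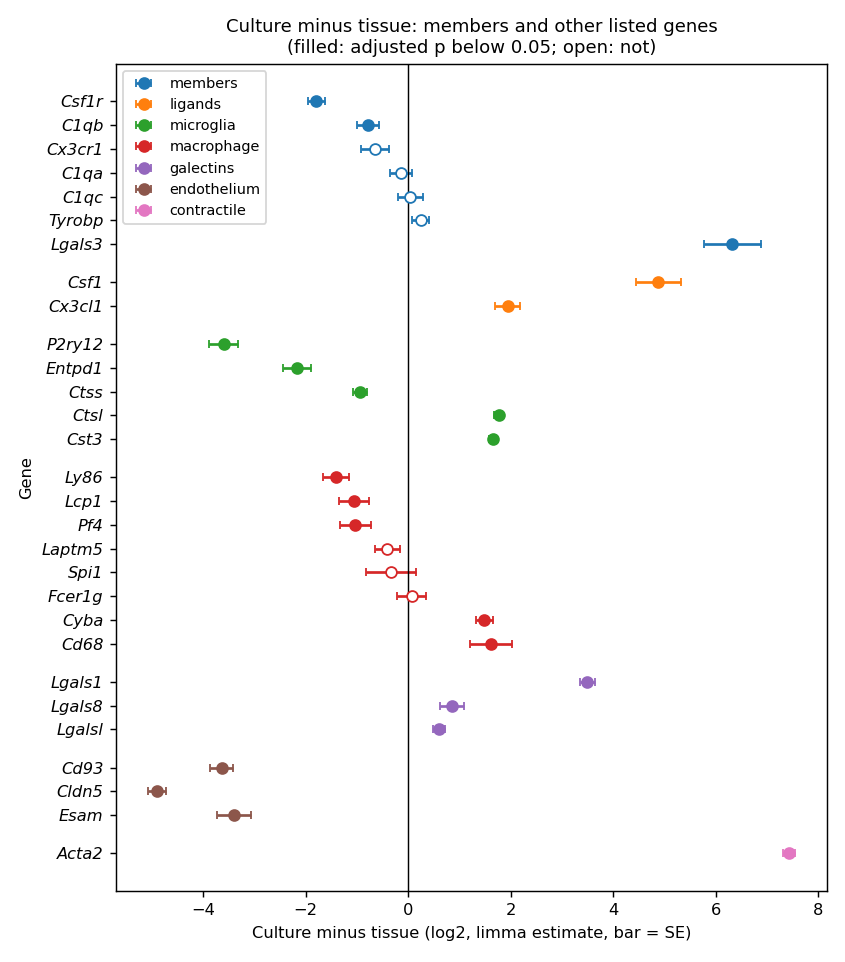
Culture minus tissue (log2, limma estimate with SE) for the 7 tested members and other genes named in the text, coloured by group; filled points passed the threshold. Csf1r, P2ry12, Ly86 and the endothelial genes lie to the left, Lgals3, Csf1, Lgals1 and Acta2 to the right.

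Markers of other cells moved with the same comparison, and their part in the members' differences was not tested. Of 6 endothelial genes tested, 4 were lower and 0 higher in culture, but 3 of the 4 were tested only through tissue. The summed signal of 10 markers was 1213 to 1452 in tissue and 232 to 270 in culture. Cldn5, a tight junction gene, was lower by 4.89 ± 0.17. The summed signal of 6 red blood cell genes was 8636 to 11913 in tissue and 21.9 to 24.4 in culture. All 5 tested were lower, but each was tested only through tissue, so their direction was set by that selection. In culture Alas2, the heme synthesis enzyme of red cells, read 1.80 and 1.54, under the floor. Pericyte and smooth muscle genes summed to 1170 to 1228 in tissue and 24071 to 24178 in culture over 9 markers. Of 7 tested, 3 were higher and 3 lower. The smooth muscle actin Acta2 (7.43 ± 0.12), Tagln (8.87) and Myl9 (4.51) were higher. Rgs5 (−2.74), Kcnj8 (−3.68) and Abcc9 (−4.83) were lower. The culture sum was mostly Acta2 (13627 in WT, 14086 in mutant) and Tagln (7110 and 6487). Astrocyte and radial glia genes summed to 18010 to 19852 in tissue and 26481 to 31979 in culture over 12 markers, with 7 higher and 2 lower of 10 tested. Neutrophil, mast cell and monocyte genes summed to 250 to 315 in tissue and 221 to 245 in culture over 10 markers, and lymphoid genes to 97.4 to 125 and 109 to 155 over 7. The meningeal fibroblast list summed to 726 to 997 in tissue and 653 to 699 in culture over 10 markers. Neuronal markers summed to 12582 to 13694 in tissue and 10807 to 12431 in culture over 10 genes.

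No difference between mutant and WT tissue was detected for the members. With 2 mutant arrays against 1 WT array, 0 of 7 passed, against 15.3% of all genes tested (8.59% higher, 6.7% lower). Unadjusted p-values under 0.05 were found for 0 of the 7. Both mutant arrays lay on the same side of the WT array for 5 of 7, against 81% of all genes tested. Read by the brightest probe set, Csf1r differed by 0.17 (95% interval −0.18 to 0.51, limma adjusted p = 0.53). C1qa differed by 0.099 (−0.32 to 0.52), C1qb by 0.040 (−0.40 to 0.48), C1qc by −0.052 (−0.71 to 0.60), Cx3cr1 by 0.081 (−0.47 to 0.63) and Tyrobp by −0.072 (−0.51 to 0.37). Other probe sets lay farther from 0: the dimmer 1 of Cx3cr1 differed by 0.62, the second of C1qb by −0.48 and the second of Csf1r by −0.38, against the sign of its brightest. For Lgals3 the interval was wide (−0.53, −2.62 to 1.56), its mutant arrays being 4.58-fold apart. Changes within these intervals could not be detected with 3 arrays.

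Other genes of the lists did change with genotype in tissue. Apoe, the apolipoprotein of astrocytes and of phagocytic microglia, read 282 in tissue of WT embryos and 690 and 637 in that of mutants, against 272 (WT) and 652 (mutant) in culture. It rose in tissue by 1.21 ± 0.12 (adjusted p = 4.33e-05) and was as far apart in culture (1.23). Lgals1 fell in mutant tissue by 1.07 ± 0.10 (adjusted p = 3.74e-05), by both of its probe sets. Csf1 rose in mutant tissue by 2.41 ± 0.52 (adjusted p = 0.0084) where the brightest probe set is read, while its next 2 differed by −0.33 and −1.09, so its direction in tissue is uncertain. Sall1, a factor of microglia that neural progenitors express too, fell by 0.58 ± 0.15 (adjusted p = 0.024). Tgfb1, the cytokine that maintains microglia, rose by 1.45 ± 0.44 (adjusted p = 0.043), Golm1 fell by 0.44 and Cst3 rose by 0.26. The calls of Sall1, Tgfb1, Golm1 and Cst3 were lost with each array centred on its median. C1qtnf4, a secreted protein with C1q-like domains, rose by 0.82 ± 0.21 (adjusted p = 0.020). Over the myeloid lists, 2 of 17 resting microglia genes passed upwards in tissue and 1 downwards, 1 and 1 of 6 in the Csf1r axis, 1 and 1 of 14 in the phagocytic list, 1 and 0 of 10 in complement, 0 and 1 of 4 in border macrophages, and 0 either way of 16 pan-macrophage, 6 Tyrobp-list and 3 fractalkine genes. The tissue calls of Apoe, Lgals1, Csf1, C1qtnf4 and Maf were lost both with no filter and with no intensity trend.

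Within culture, 1 mutant array was set against 1 WT array, with no replicate check. Of 7 tested members 6 were lower in the mutant culture, where 48.1% of all genes tested were lower. None was 2-fold apart, against 3.68% of all genes (1.85% higher, 1.83% lower). The differences were −0.78 for Cx3cr1, −0.64 for C1qa, −0.54 for C1qb, −0.30 for Lgals3, −0.25 for C1qc and −0.072 for Csf1r, and Tyrobp differed by 0.20. Over the 13 probe sets 8 were lower and 5 higher. Both dimmer C1qb probe sets were higher in mutant culture (0.37 and 0.80), so even the probe sets of 1 gene differed in direction. Aif1 read 10.7 in mutant culture and was under the floor in WT culture. In the pan-macrophage list 12 of 16 genes were lower in mutant culture, with a median of −0.32, beside 0.0093 over all genes tested. The other myeloid lists were mixed. Higher and lower in mutant culture were 9 and 8 resting microglia genes, 7 and 7 phagocytic genes and 3 and 3 Tyrobp-list genes. Border macrophage genes gave 2 and 2, the Csf1r axis 4 and 2, complement 3 and 7, and fractalkine genes 1 and 2.

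**Figure D4:**
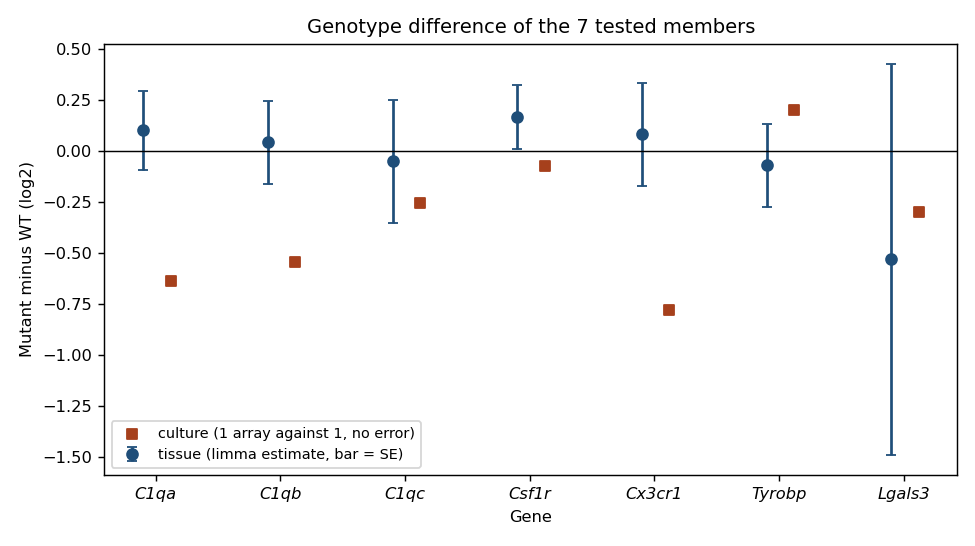
Mutant minus WT (log2) for the 7 tested members: circles are the limma estimate in tissue with its SE (2 mutant arrays, 1 WT array), squares the difference of the 2 culture arrays, which has no error. The tissue values lie between −0.53 and 0.17, as read by each gene's brightest probe set, and 6 of 7 culture values lie below 0.

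Across both preparations 0 of 7 members passed for genotype, against 1.07% of all genes tested (0.814% higher, 0.253% lower), and 0 had an unadjusted p in limma under 0.05. The members' median was −0.21, beside −0.00090 over all genes. Maf was lower in mutants across both preparations (a fall of 2.74 ± 0.14, adjusted p = 0.000252) and Apoe higher (1.22 ± 0.12, adjusted p = 0.0038); neither is specific to macrophages. The genotype effect in culture minus that in tissue also passed for 0 of 7 members, against 4.48% of all genes (2.21% higher, 2.27% lower), and C1qa alone had an unadjusted p under 0.05. It was −0.74 ± 0.30 for C1qa (adjusted p = 0.21) and −0.86 ± 0.42 for Cx3cr1 (adjusted p = 0.30).

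The profile shared by the C1q chains was described by the mean of C1qa, C1qb and C1qc, each centred on its own mean over the 5 arrays. It was 0.085 in tissue of WT embryos and 0.14 and 0.087 in that of mutants, against 0.082 (WT) and −0.40 (mutant) in culture, with mutant culture lowest. It reads the brightest C1qb probe set, and the other 2 were higher in mutant than in WT culture. The tested genes nearest to it were Nphp4, Prrc1, Mpdu1, Fbxl19, Sbno1, Wdr33, Washc2 and Med1, with a root mean square distance of 0.018 to 0.051 over the 5 arrays. The C1q genes themselves lay farther from their own mean: C1qa was at 0.099, with rank 111 of the 11063 genes, C1qc at 0.18 (rank 1196) and C1qb at 0.24 (rank 2751). Cx3cr1 was at 0.19 (rank 1461), Tyrobp at 0.33, Csf1r at 0.77 and Lgals3 at 3.34. Many genes thus lay as near to the C1q profile over these 5 arrays as the chains themselves.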

How the data were processed

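Linear intensity values, 1 per probe set, were deposited by the authors for 45101 probe sets on 5 arrays; the values show that each array had been scaled to a mean of 150.001 over all but the 2% brightest and 2% dimmest probe sets. The labels name no software, and detection calls were not analysed here. Probe sets were named through the supplied platform annotation: 34945 had 1 symbol and 932 several, which were not used, and 64 controls were left out of tests. Arrays were quantile normalized because their medians spanned 0.183 log2, values under the pooled 20th percentile were raised to it before the log2 step. The brightest probe set stood for a gene. Models were fitted with limma 3.58.1 (R 4.3.3), its prior variance following intensity, and Benjamini-Hochberg adjustment over 11063 genes, and the scripts were tested on simulated data. Genotype in tissue used 3 arrays (1 residual degree of freedom); genotype and preparation were terms of 1 additive model over 5 arrays (2 residual); the interaction came from a model of 4 groups (1 residual). In the tissue fit and the model of 4 groups, a group of 1 array was taken to vary as the pair of mutant tissue arrays did. In the additive model the spread also includes disagreement of the genotype difference between tissue and culture. The number of arrays limits the precision.

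The members, the 20 lists (273 genes, 251 with a probe set of 1 symbol, 138 tested) and the naming rule were chosen with earlier results of these data known. Named were all members, a fixed set of 18 partner and marker genes where the annotation held them, at most 4 genes past the threshold per list and comparison, and the 8 genes nearest to the C1q profile; not every such gene is printed. Promoter sequences came from RefSeq. Alternatives covered scaling, floor, filter, probe set choice, the variance prior and each mutant tissue array left out.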

Additional observations from a re-analysis of the deposited data

Results flagged for a closer look

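Beside the members, 3 genes had a genotype effect that differed between culture and tissue by the interaction test in limma. Csf1 had a culture effect 2.22 lower than its tissue effect on the log2 scale (−2.22 ± 0.38, adjusted p = 0.012), resting on its brightest probe set, since the mean of its probe sets gave −0.64 (adjusted p = 0.55). Lgals1 differed by 0.71 ± 0.12 (adjusted p = 0.011): it was lower in mutants by 1.07 in tissue (log2 −1.07) and by 0.36 in culture (−0.36). Sall1 differed by 1.06 ± 0.24 (adjusted p = 0.036), with −0.58 in tissue and 0.49 in culture. All 3 calls were lost without a filter on dim genes, without an intensity trend and with the mean of a gene's probe sets. Each rests on 1 culture array per genotype.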

How the results depend on the processing

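Over 12 alternatives, and 2 more chosen after seeing the data that hold a gene's probe set while a replicate is left out, Csf1r stayed lower in culture (−1.86 to −1.21, adjusted p from 7.96e-06 to 0.024) and Lgals3 higher (5.19 to 6.85, 4.3e-06 to 0.048). Apart from the mean of probe sets, each of these fits read the brightest Csf1r probe set. The range therefore does not cover its second probe set, which differed by −0.27 (limma adjusted p = 0.38). Of 336 member values, 315 kept their direction and side of the threshold or moved within the spread of the mutant tissue arrays. In all 15 changed sign, 7 of C1qb, 4 of Lgals3, 3 of C1qc and 1 of Tyrobp. In the tissue genotype difference without 1 or the other mutant array, which has no test, C1qb was −0.74 and −0.22, Lgals3 −1.60 and 0.56, and C1qc −0.14 and 0.031. With 1 or the other mutant array left out, the second C1qb probe set was brightest. The C1qb values of these fits, here and below, come from it and not from the first. With the first kept in place, the C1qb preparation difference was −0.73 and −0.74. C1qb went to −0.10 (tissue genotype), 0.031 (both preparations) and 0.31 (interaction) with the mean of its probe sets, and lay between −0.18 and 0.074 (both preparations) and between −0.26 and 0.00016 (preparation) without 1 or the other mutant tissue array. Lgals3 lay between −0.95 and 0.13 (both preparations) in the same fits, whichever way the probe set was chosen, and went to −0.047 (interaction) with a pseudocount of 16. C1qc went to 0.031 and Tyrobp to 0.068 (tissue genotype) with median centring, and C1qc to −0.051 (preparation) with the deposited scaling.

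Counts over all genes moved more. Genotype in tissue (1691 genes) gave 389 with no filter, 489 with the mean of probe sets and 2 with no trend. Genotype across both preparations (118) gave 0, 35 and 4 under the same alternatives, 1020 in the model of 4 groups, and 35 to 36 with a mutant tissue array left out. In the main fit, 1443 of 11063 genes had an unadjusted p in limma under 0.05. That fit kept the filter and is not the one that gave 0. Preparation (4297) gave 1894 with no filter and 6742 probe sets. The interaction (496) gave 263 with median centring, 802 with the stricter filter, 4 with the mean of probe sets and 0 with no trend; 2168 had an unadjusted p under 0.05 with the trend. Genes 2-fold apart in culture (407) became 226 with a pseudocount, 2470 with no filter, 239 with the stricter filter and 784 as probe sets. Median centring moved the share of higher calls from 56.2% to 74.5% for genotype in tissue and from 49.4% to 28.5% for the interaction. Other causes were not tested. Of 521 values of the 35 other genes called, 70 lost their call and 0 changed sign. Tissue genotype without a mutant array, and the interaction then, leave no residual degrees of freedom and gave no test. No paired analysis was possible because 3 of the 4 groups hold 1 array, so the groups share fewer than 2 replicate numbers.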

Other observations

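Genes linked with phagocytic and activated microglia, of which Lgals3 is one, gave 8 higher and 1 lower in culture of 14 tested, out of 25 listed, where 19.6% of all genes tested were higher and 19.2% lower. Of the 8, Lgals3 was tested only through culture. The median was 0.80, beside 0.0016 over all genes tested. Anxa5, which binds phosphatidylserine on dying cells, rose by 2.63 ± 0.11 (limma adjusted p = 4.74e-06). Igf1, a growth factor, read 43.3 in tissue of WT embryos, 49.7 and 46.5 in that of mutants, and 267 in each culture array (2.62 ± 0.19, adjusted p = 6.3e-05). Neither is restricted to microglia. Some dim members that were not tested were also brighter in culture: Gpnmb, a lysosomal glycoprotein of macrophages and other cells, read 3.95, 20.1 and 1.26 in tissue and 123 in each culture array, and Clec7a, a fungal sugar receptor of myeloid cells, 3.08, 2.72 and 14.6 in tissue and 71.9 and 74.9 in culture. These 2 were chosen after their values were seen.

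Class I antigen presentation genes were higher in culture as well. B2m, the light chain of class I molecules, rose by 1.67 ± 0.13 (adjusted p = 8.48e-05), H2-D1 by 2.10 ± 0.28 (adjusted p = 0.000883) and H2-K1 by 1.46 ± 0.16 (adjusted p = 0.000396). The interferon-inducible membrane gene Ifitm3 read 123 in tissue of WT embryos and 98.9 and 117 in that of mutants, against 1572 (WT) and 1412 (mutant) in culture (3.68 ± 0.14, adjusted p = 2.91e-06). In this list of 14 genes, 4 rose and 0 fell of 5 tested, where 19.6% of all genes tested were higher and 19.2% lower. The call of H2-D1 was lost under an alternative way of processing. Values for endothelial, contractile and glial markers moved with the same comparison, and their part was not tested.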
